A study of Cricetiscus sungorus with 24 samples.

Results

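The circadian clock genes examined here were Per1, Per2, Per3, Cry1, Cry2, Clock, Nr1d1, Nr1d2, Dbp and Tef, measured in the kidney of Djungarian hamsters. They were taken by name, as core clock genes and direct clock outputs. They made up 10 of the 15960 genes listed in either experiment, 7 of 9681 in experiment 1 and 10 of 15842 in experiment 2. For each gene, the transcript with the most reads in the experiment was taken. Its reads were scaled to the total of the library, with 1 transcript per gene, and are given as CPM.

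Experiment 1 held adult males in 3 groups of 4 libraries, which were long photoperiod (LP, 16 h of light and 8 h of dark), 12 weeks of short photoperiod (SP12wk, 8 h of light and 16 h of dark) and 28 weeks of it (SP28wk). Experiment 2 held adult females moved from LP to 8 weeks of SP. They received an intraperitoneal injection at the middle of the light phase on 3 days, of vehicle (SAL, dimethyl sulfoxide with saline, n = 6) or of 18 µg ovine prolactin in vehicle (PRL, n = 6). All hamsters of both experiments were killed in a single window, 2 to 4 h after lights on. Each group was thus sampled once in the day, and the values hold no information on the amplitude or the phase of a rhythm. Since the night is shorter in LP than in SP, the window lies at another time after lights off in LP, and a difference in level and a difference in clock phase cannot be told apart between them. The hour at which each animal was killed is not in the labels, and its part in any difference was not tested.

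The mammalian clock is a transcriptional loop that runs in nearly every cell, the cells of the nephron included. CLOCK with its partner BMAL1 switches on the Per, Cry, Nr1d and PAR bZIP genes, and the PER and CRY proteins then shut off CLOCK and BMAL1. The REV-ERB receptors made from Nr1d1 and Nr1d2 repress Bmal1 and Clock, and DBP and TEF carry the rhythm to genes of metabolism and transport. In the kidney the clock is known for daily rhythms of sodium, potassium and water excretion, and glucocorticoids can set its phase through Per1.

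The libraries were shallow for transcription factors. Totals with 1 transcript per gene were 15693 to 57552 reads in experiment 1, where 1 read was worth 17.4 to 63.7 CPM. They were 174054 to 756486 reads in experiment 2, where 1 read was worth 1.32 to 5.75 CPM. A gene without a read could have stood at up to 3 reads, which is 52.1 to 191 CPM in experiment 1 and 3.97 to 17.2 CPM in experiment 2, for counting error only. Markers of the kidney were present in every library, with a summed level of proximal tubule markers of 1512 to 2662 CPM in experiment 1 and 816 to 2049 CPM in experiment 2, although Cubn and Kap were in neither table. Haemoglobin and other red cell markers summed to 14197 to 44129 CPM in experiment 1 and 8909 to 19490 CPM in experiment 2. Paired haemoglobin genes had nearly equal reads, in experiment 2 10086 for Hba-a1 and 10046 for Hba-a2, and 18797 for Hbb-bs and 18757 for Hbb-bt. The sums can therefore count the same read more than 1 time and overstate the level. The experiments differed in sex, flow cell and depth, which cannot be told apart, so levels were compared within an experiment only.

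In females, PRL was set against SAL to ask whether prolactin altered the clock genes of a short-day kidney. Dbp was the only member with every PRL library above every SAL library, at 2.28 times the mean level. Among all genes tested, 0.112% showed that separation, about the share that a random split gives. Dbp encodes the D-box binding protein, a transcription factor made directly under CLOCK and BMAL1. No member passed the adjusted test, and the other members overlapped between the groups.

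Dbp had 7, 12, 2, 12, 8 and 10 reads in SAL replicates 1 to 6 and 33, 27, 10, 13, 13 and 18 reads in PRL replicates 1 to 6. In SAL the level of Dbp was lowest at 9.13 CPM, with a median of 23.5 CPM and a highest value of 32.0 CPM. In PRL the lowest level was 35.7 CPM, the median 53.2 CPM and the highest 74.7 CPM. The lowest PRL library thus lay above the highest SAL library.

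The group means of Dbp were 23.1 ± 8.49 CPM (SD, n = 6) in SAL and 52.7 ± 14.2 CPM (SD, n = 6) in PRL. The difference of 29.6 CPM had a two-sided exact permutation p of 0.00216, unadjusted, which is the smallest that 6 against 6 libraries can give. In the quasi-likelihood test of edgeR across 10701 genes, the log2 fold change of Dbp was 1.02 (SE 0.30, 95% interval 0.42 to 1.62), with an unadjusted p of 0.00140 and a Benjamini-Hochberg adjusted p of 0.290. Dbp ranked 47 of 10701 by p. A separation of every PRL library above every SAL library was found for 0.112% of the genes tested, or 12 genes, and Dbp was the 1 member among them.

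Of the 8 members tested, 0 passed an adjusted p of 0.05, against 0% of all genes tested. At an unadjusted p under 0.05 there was 1 member, Dbp, where 4.86% of all genes stood below that p (520 genes). The 8 members had a median log2 fold change of 0.48, beside 0.02 for all genes, and 7 of them were higher in PRL, where 52.3% of all genes were. DESeq2 likewise called 0 genes of the whole table, with 344 at an unadjusted p under 0.05, and limma-voom called 0, with 589. In bulk kidney, a difference in the number of cells that express a gene and a difference in RNA per cell cannot be told apart.

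**Figure D1:**
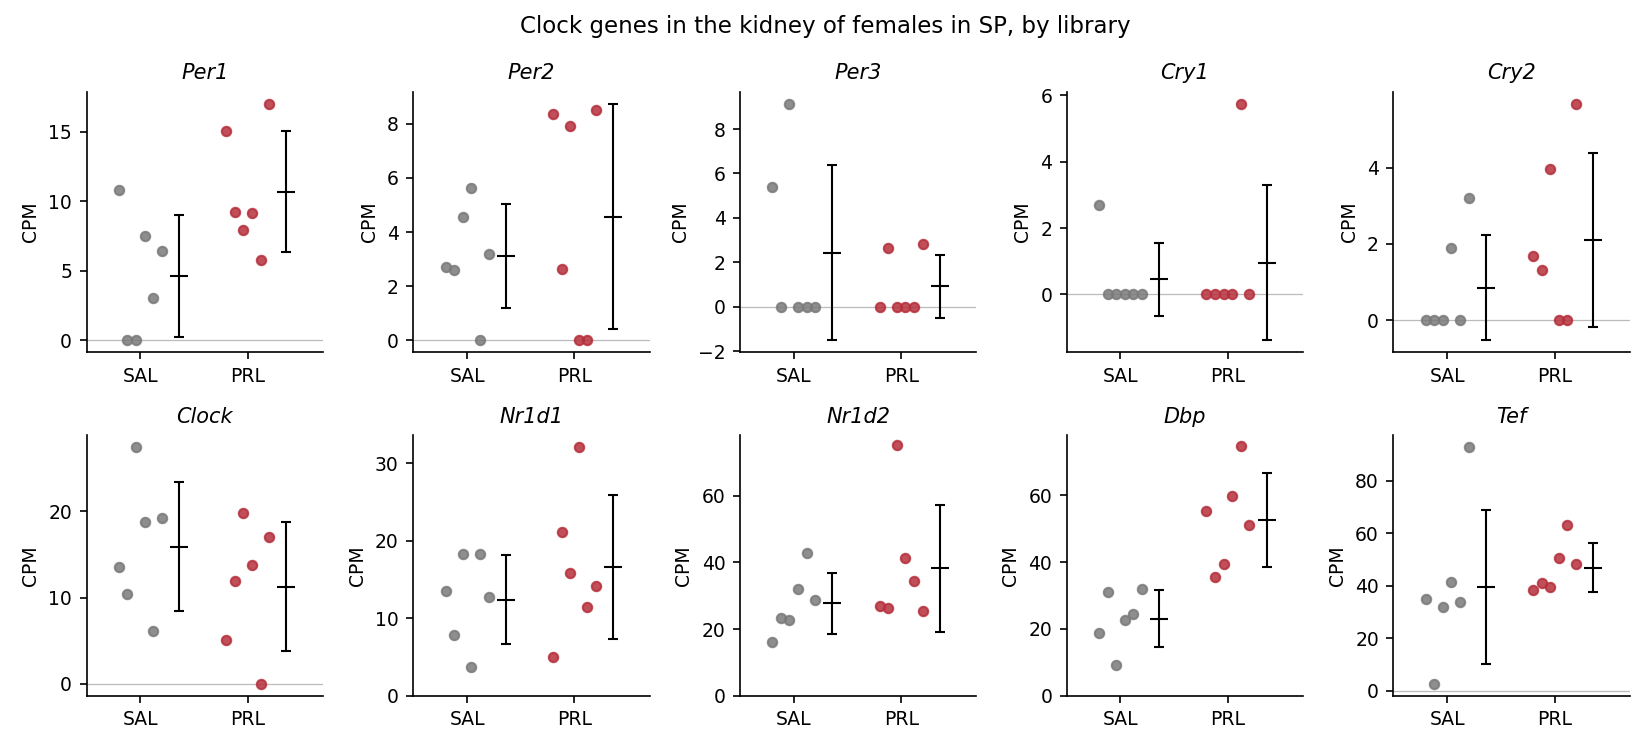
Level of each of the 10 clock genes in experiment 2, in CPM on the vertical axis, for SAL (grey) and PRL (red). Each point is 1 library, the black bar is the mean and the whiskers are the SD (n = 6). Dbp runs from 9.13 to 32.0 CPM in SAL and from 35.7 to 74.7 CPM in PRL, and every other panel shows overlapping groups.

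The period genes encode the PER proteins, which together with CRY form the repressing arm of the loop. Per1 had 4, 0, 0, 4, 1 and 2 reads in SAL and 9, 7, 2, 2, 1 and 6 reads in PRL. Its level in SAL was lowest at 0 CPM, with a median of 4.73 CPM and a highest value of 10.8 CPM. In PRL it was lowest at 5.75 CPM, with a median of 9.22 CPM and a highest value of 17.0 CPM.

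The Per1 ranges overlapped, and the group without reads in 2 libraries was SAL. The means were 4.63 ± 4.36 CPM (SD, n = 6) in SAL and 10.7 ± 4.38 CPM (SD, n = 6) in PRL, with an unadjusted exact permutation p of 0.0476. The edgeR log2 fold change was 1.07 (SE 0.56, 95% interval -0.06 to 2.19, Benjamini-Hochberg adjusted p of 0.998). Leaving out 1 library took the exact permutation p over 0.05 for 8 of the 12 libraries, which were SAL replicates 2, 3, 5 and 6 and PRL replicates 1, 2, 4 and 6, with p between 0.0541 and 0.0909.

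Per2, the period gene with the closest ties to the phase of the clock, had 7 reads over the 6 SAL libraries and 12 over the 6 PRL libraries. Its mean was 3.12 ± 1.93 CPM (SD, n = 6) in SAL and 4.57 ± 4.16 CPM (SD, n = 6) in PRL, and the edgeR log2 fold change was 0.56 (95% interval -0.87 to 1.98). Per3 had 4 reads in SAL and 3 in PRL. The cryptochromes, which encode the partners of PER in repression, were likewise rare, with Cry1 at 1 read in each group and Cry2 at 2 reads in SAL and 5 in PRL. A difference in Per3 or Cry1 was not detectable at this depth, and neither entered the edgeR test. Cry2 was in enough libraries to be tested, with a log2 fold change of 0.93 (SE 0.96, 95% interval -1.02 to 2.87) that rests on those 7 reads.

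Clock encodes the activator that pairs with BMAL1. Its lowest, median and highest levels were 6.12, 16.2 and 27.4 CPM in SAL and 0, 12.8 and 19.8 CPM in PRL. Clock was the only one of the 8 members tested whose log2 fold change was below 0, at -0.50 (SE 0.45, 95% interval -1.41 to 0.40). The groups overlapped, with an exact permutation p of 0.307.

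Nr1d1 and Nr1d2 encode REV-ERB alpha and REV-ERB beta, the nuclear receptors of the second loop. Nr1d1 was at 3.76, 13.2 and 18.4 CPM in SAL (lowest, median and highest) and from 5.02 to 32.2 CPM in PRL. Its log2 fold change was 0.41 (SE 0.44, 95% interval -0.48 to 1.31). The Nr1d1 gene overlaps Thra on the opposite strand, and no source used here says whether the counting used strand, so its values are uncertain.

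Nr1d2 was at 16.2, 26.1 and 42.8 CPM in SAL and at 25.5, 30.6 and 75.1 CPM in PRL. The highest value, of PRL replicate 3, came from 19 reads and lay well above the next PRL library, at 41.4 CPM. The log2 fold change of Nr1d2 was 0.29 (SE 0.32, 95% interval -0.35 to 0.94). Without PRL replicate 3 it was -0.0039, so the direction rested on that library.

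Tef encodes thyrotroph embryonic factor, a transcription factor of the PAR bZIP family that binds the same D-box as DBP. It had 13, 1, 7, 22, 11 and 29 reads in SAL and 23, 31, 10, 11, 11 and 17 reads in PRL. SAL libraries spread from 2.60 CPM in replicate 2 to 92.8 CPM in replicate 6, with a median of 34.4 CPM, while PRL libraries lay between 38.5 and 63.2 CPM, with a median of 44.6 CPM. Both the lowest and the highest Tef library were therefore SAL.

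The means of Tef were 39.6 ± 29.4 CPM (SD, n = 6) in SAL and 46.8 ± 9.38 CPM (SD, n = 6) in PRL, with an exact permutation p of 0.595. The edgeR log2 fold change was 0.13 (SE 0.35, 95% interval -0.57 to 0.84). Both extreme SAL libraries moved it. Without SAL replicate 6 the difference of the means was 17.9 CPM, with an unadjusted exact permutation p of 0.0152, and without SAL replicate 2 the log2 fold change was -0.15.

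Because DBP and TEF belong to 1 family, Dbp was also taken as a percent of the Dbp and Tef reads of a library, a ratio that the scaling to library size cannot move. This measure was chosen after the values were seen. It was 35.0, 92.3, 22.2, 35.3, 42.1 and 25.6% in SAL replicates 1 to 6. In PRL replicates 1 to 6 it was 58.9, 46.6, 50.0, 54.2, 54.2 and 51.4%. SAL replicate 2, with 12 Dbp reads and 1 Tef read, was the exception among SAL libraries, and the other SAL libraries lay below every PRL library.

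The mean percent was 42.1 ± 25.6 (SD, n = 6) in SAL and 52.5 ± 4.23 (SD, n = 6) in PRL, with an exact permutation p of 0.377. Without SAL replicate 2 the SAL mean was 32.1 ± 8.03 (SD, n = 5), 20.5 percentage points below PRL. That value is a description with no test, since the library left out is the one that breaks the separation. Intervals of single libraries were wide, for example 2.81 to 60.0% for the 9 reads of SAL replicate 3 (exact Clopper-Pearson, 95%).

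**Figure D2:**
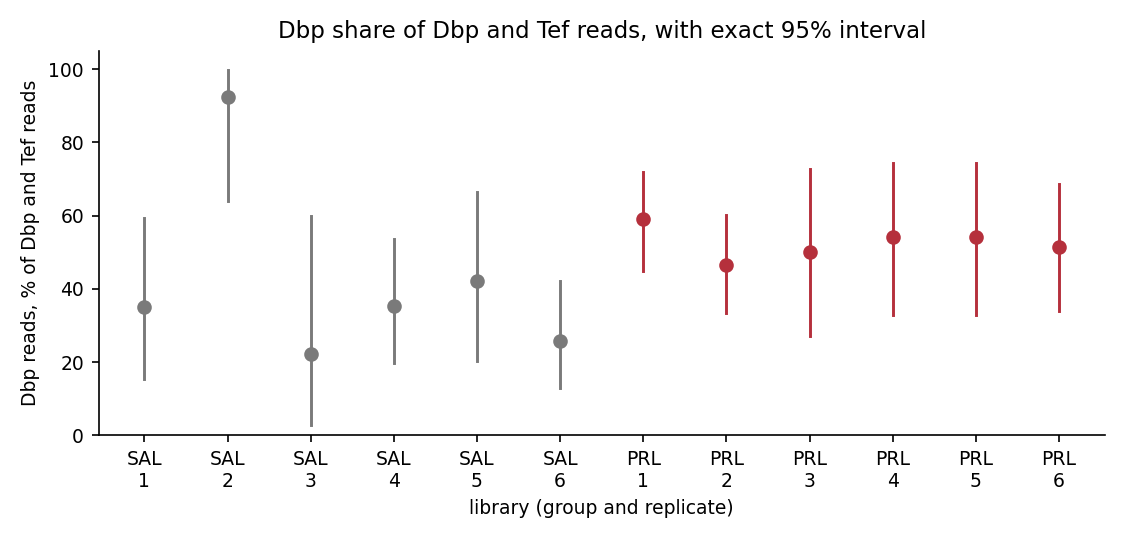
Dbp reads as a percent of Dbp and Tef reads (vertical axis) in each library of experiment 2 (horizontal axis), SAL in grey and PRL in red. Points are single libraries and lines are exact 95% intervals, which cover counting error only. PRL libraries lie between 46.6 and 58.9%, and SAL libraries between 22.2 and 42.1% except replicate 2 at 92.3%.

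Depth and cell markers were set beside the Dbp result. The 2 deepest libraries were PRL replicates 1 and 2, and without them the log2 fold change of Dbp was 1.10 (95% interval 0.39 to 1.80). Over the fits that left out 1 library in turn it lay between 0.86 and 1.11. Summed markers overlapped between SAL and PRL for the proximal tubule (816 to 1857 and 989 to 2049 CPM), the thick limb (125 to 475 and 198 to 506 CPM) and the collecting duct (460 to 827 and 569 to 720 CPM). Adipose markers summed to 39.5 to 239 CPM in SAL, with a median of 69.1 CPM. In PRL they summed to 78.0 to 292 CPM, with a median of 171 CPM, so these ranges overlapped too. Their medians stood in the same order as those of Dbp. So did the medians of the proximal tubule (1219 and 1250 CPM), the thick limb (225 and 309 CPM) and the collecting duct (547 and 649 CPM). Those of glomerulus and endothelium were slightly higher in PRL, and those of distal tubule, blood, immune and adrenal markers were lower. The part of any of these markers in the result was not tested.

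The 25 other clock genes on the list included the partner of CLOCK, the ROR receptors that oppose REV-ERB, the kinases that phosphorylate PER and the ligases that degrade CRY and PER. In PRL against SAL, 16 of them were tested, 0 were called by edgeR at either an adjusted or an unadjusted p under 0.05, and 7 of 16 were higher in PRL, with a median log2 fold change of -0.09. Those with the most reads were Csnk1a1, a casein kinase (log2 fold change -0.33, SE 0.24), Nono and Sfpq, which encode RNA-binding partners of PER (0.18, SE 0.27, and -0.21, SE 0.28), and Bhlhe40, which encodes the repressor DEC1 (0.40, SE 0.31). Outside the rule for names, and added after the values were seen, Hlf, the other PAR bZIP gene, had a log2 fold change of -0.52 (SE 0.37). Arntl, which encodes BMAL1, had 7 reads in each group.

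Of 16 genes listed as clock outputs, 13 were tested, 0 were called, and 9 were higher in PRL, where 52.3% of all genes were. Their median log2 fold change was 0.38, beside 0.02 for all genes. Those with the most reads were Sgk1, a kinase that retains sodium channels at the membrane (0.57, SE 0.24), Por, the electron donor of cytochromes P450 (-0.41, SE 0.25), Tspan4 (0.17, SE 0.25) and Slc6a6, the taurine transporter (-0.23, SE 0.25). Sgk1, Scnn1a and Aqp2 were below an unadjusted p of 0.05, where 4.86% of all genes were. Scnn1a and Aqp2 are named for their values. Scnn1a encodes a subunit of the epithelial sodium channel and had 3 reads in SAL and 13 in PRL. Aqp2 encodes the water channel of the collecting duct and had 19 and 44 reads.

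Of 11 genes listed as responding to glucocorticoids, Per1 among them, 8 were tested. All 8 were higher in PRL, where 52.3% of all genes were. Of those not tested, Cdkn1a was lower in PRL (2.20 CPM in SAL and 1.74 CPM in PRL). Fkbp5 and Zbtb16 each had 0 reads in SAL and 2 in PRL. Their median log2 fold change was 0.58, beside 0.02 for all genes, and 0 passed the adjusted test. At an unadjusted p under 0.05 there were 4, where 4.86% of all genes stood below that p. The 4 were Tsc22d3, Sgk1, Dusp1 and Mt2, named for their values. The list was chosen with earlier results of these data known. Tsc22d3, a leucine zipper induced by glucocorticoids, was at 74.6 ± 26.2 CPM (SD, n = 6) in SAL and 119 ± 47.7 CPM (SD, n = 6) in PRL (log2 fold change 0.58, SE 0.26). Sgk1 was at 83.0 ± 25.2 and 129 ± 24.4 CPM. Mt1 (0.36, SE 0.27) and Klf9 (0.03, SE 0.30) were the others with the most reads. The summed level of the list was 255 to 455 CPM in SAL and 446 to 598 CPM in PRL, ranges that overlap, and its part in the values of Dbp was not tested. Per1 is itself on the list. Sgk1 is also counted among the clock outputs and Dusp1 among the immediate early genes, so the lists are not independent.

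Immediate early genes gave 4 of 10 tested higher in PRL and a median log2 fold change of -0.51, with Dusp1 higher and Egr1 lower at an unadjusted p under 0.05, both named for their values. Those with the most reads were Jun (0.05, SE 0.39), Zfp36 (0.64, SE 0.36), Ier3 (-0.52, SE 0.38) and Btg2 (-0.49, SE 0.44). Their summed level was 77.6 to 165 CPM in SAL and 90.8 to 166 CPM in PRL. Genes of the cold and heat response, Cirbp, Rbm3 and heat shock genes that follow body temperature, gave 6 of 8 higher, a median of 0.25 and none at an unadjusted p under 0.05. Hspa8 differed by 0.07 (SE 0.18), Cirbp by -0.12 (SE 0.22), Rbm3 by -0.27 (SE 0.22) and Hsp90aa1 by 0.22 (SE 0.22) on the log2 scale.

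**Figure D3:**
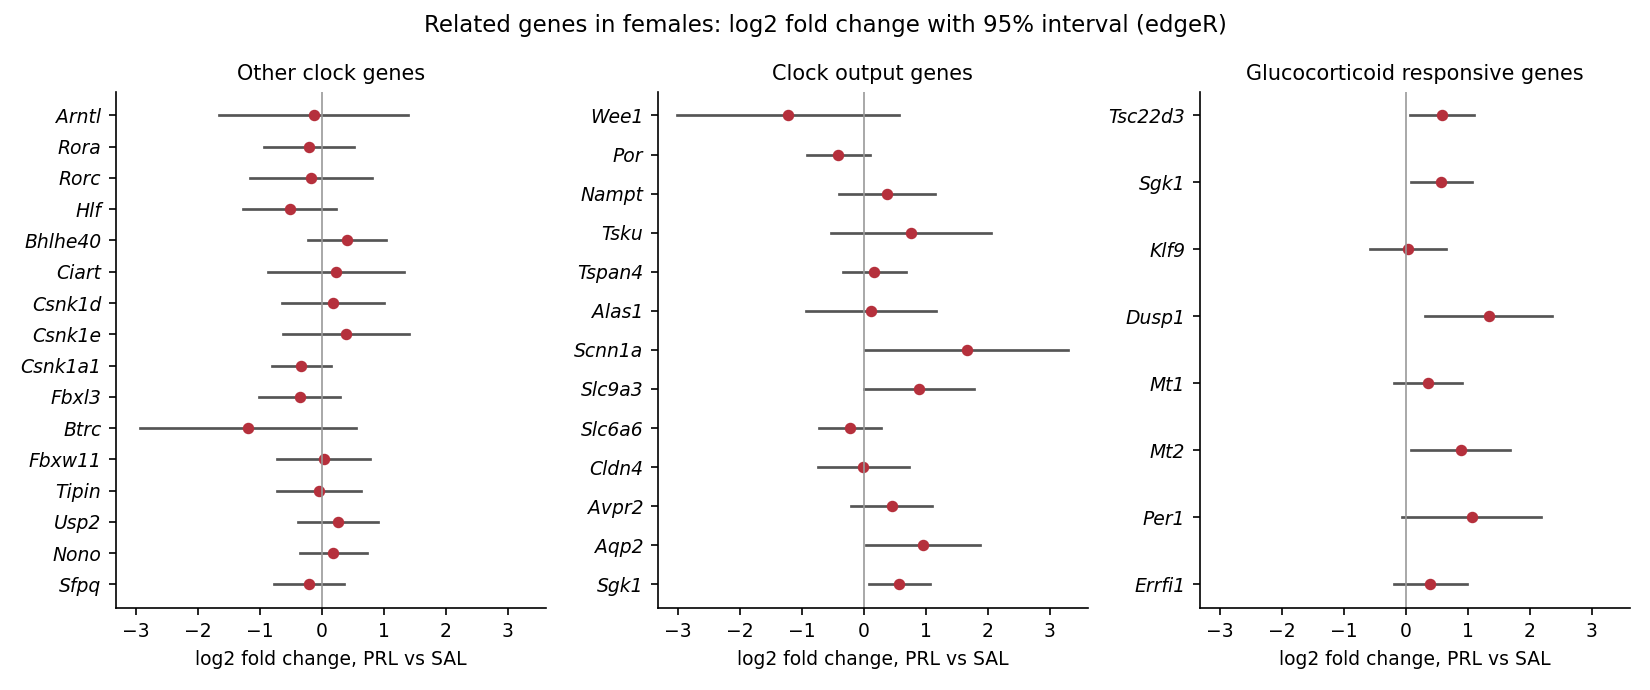
Log2 fold change of PRL against SAL (horizontal axis) for the tested genes of 3 lists, the other clock genes, clock outputs and glucocorticoid responsive genes, with points for the edgeR estimate and lines for the 95% interval. The 8 glucocorticoid responsive genes all lie to the right of 0, while the other clock genes lie on both sides. The lists were chosen with earlier results of these data known.

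Across the 12 libraries of experiment 2, each gene was correlated with Tef, the member with the most reads (186), on the scale of log2(CPM + 2.95). Dbp had a Pearson r of 0.24 (permutation p of 0.443) and a Spearman rho of 0.60 (permutation p of 0.0425), with adjusted values of 0.996 and 0.865 over 10700 genes. Without SAL replicates 2 and 6, the libraries farthest from the median of Tef, r was 0.82. Within SAL, r was -0.13, and within PRL it was 0.79, and with each library centred on the mean of its group r over all 12 libraries was -0.03.

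Per1 had an r of 0.59 with Tef (permutation p of 0.0526, adjusted 0.996), which was 0.39 without those libraries. Per2, Cry2, Clock, Nr1d1 and Nr1d2 had values of r from -0.03 to 0.37. The genes most like Tef were B3galnt2 (r of 0.87), Cldn4 (0.86), Grb2 (0.85), Ywhag (0.84) and Gm47655 (0.83), and without the same libraries they had an r of 0.22 to 0.70. No gene passed an adjusted p of 0.05, and 457 had an unadjusted permutation p below it. These likenesses are descriptions over libraries that share a treatment.

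In males, SP12wk and SP28wk were set against LP, and against each other, to ask whether the clock genes followed the seasonal programme of the kidney. Over 12 libraries there were 28 reads of Tef, 14 of Clock, 12 of Nr1d1, 11 of Nr1d2, 9 of Dbp, 4 of Per2 and 3 of Per1, and Per3, Cry1 and Cry2 were not listed. Tef was the one member with more than 3 reads in a library. No member passed a test in any of the 3 comparisons.

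Tef had 3, 4, 5 and 2 reads in LP replicates 1 to 4, and was at 141, 224, 277 and 77.7 CPM. It had 3, 0, 0 and 3 reads in SP12wk, at 123, 0, 0 and 84.8 CPM. In SP28wk it had 4, 0, 3 and 1 reads, at 158, 0, 85.7 and 17.4 CPM. Tef was read in 4 of 4 LP libraries, 2 of 4 SP12wk libraries and 3 of 4 SP28wk libraries, and the groups overlapped.

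The mean of Tef was 180 ± 88.3 CPM (SD, n = 4) in LP, 51.9 ± 61.8 CPM (SD, n = 4) in SP12wk and 65.3 ± 72.1 CPM (SD, n = 4) in SP28wk. The exact permutation p was 0.0857 for SP12wk against LP and 0.143 for SP28wk against LP, where 4 against 4 libraries cannot go below 0.0286. The edgeR log2 fold change was -1.19 (SE 0.79, 95% interval -2.75 to 0.37, Benjamini-Hochberg adjusted p of 0.686) and -1.12 (SE 0.75, adjusted p of 0.770). SP12wk and SP28wk, the neighbours in this order, differed by 0.07 (SE 0.91). The intervals run from a large difference to none, so these libraries bound the change of Tef only loosely.

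Clock had 1, 3, 2 and 1 reads in LP, 1, 1, 0 and 0 in SP12wk and 1, 1, 1 and 2 in SP28wk. Its mean was 91.2 ± 60.5 CPM (SD, n = 4) in LP, 26.1 ± 31.6 CPM (SD, n = 4) in SP12wk and 36.1 ± 5.75 CPM (SD, n = 4) in SP28wk. For SP28wk against LP the log2 fold change was -0.81 (SE 0.98, adjusted p of 0.909) and the exact permutation p was 0.0857. Without LP replicate 4 that p was 0.0286, the smallest that 3 against 4 libraries can give. LP libraries overlapped those of both SP groups.

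Nr1d1 had 1, 0, 1 and 0 reads in LP, 1, 1, 1 and 2 in SP12wk and 1, 3, 0 and 1 in SP28wk, with group means of 25.6, 52.8 and 45.4 CPM. Without SP28wk replicate 2, SP28wk lay 33.9 CPM below SP12wk, with an exact permutation p of 0.0286, against 0.857 with it. Nr1d2 had 4, 4 and 3 reads in the 3 groups, with means of 55.7 ± 64.4, 40.3 ± 28.5 and 24.2 ± 28.8 CPM (SD, n = 4 each). Both receptors overlapped between all groups.

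Dbp, the member whose PRL and SAL values did not overlap in females, had 0, 0, 1 and 0 reads in LP. It had 1, 2, 0 and 0 in SP12wk and 2, 0, 1 and 2 in SP28wk. Its means were 13.9 ± 27.7, 42.1 ± 60.1 and 35.6 ± 32.7 CPM (SD, n = 4 each), and the exact permutation p was 0.371 for SP28wk against LP. Every Dbp value in males rested on 0 to 2 reads. A difference as large as that between the female groups, in either direction, was not detectable at this depth.

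Per2 had 1 read in LP, 1 in SP12wk and 2 in SP28wk. Per1 had 0, 0 and 3, the last in 2 libraries of SP28wk. With no group above 3 reads, the floor used here for a group, no fold is given for either gene.

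**Figure D4:**
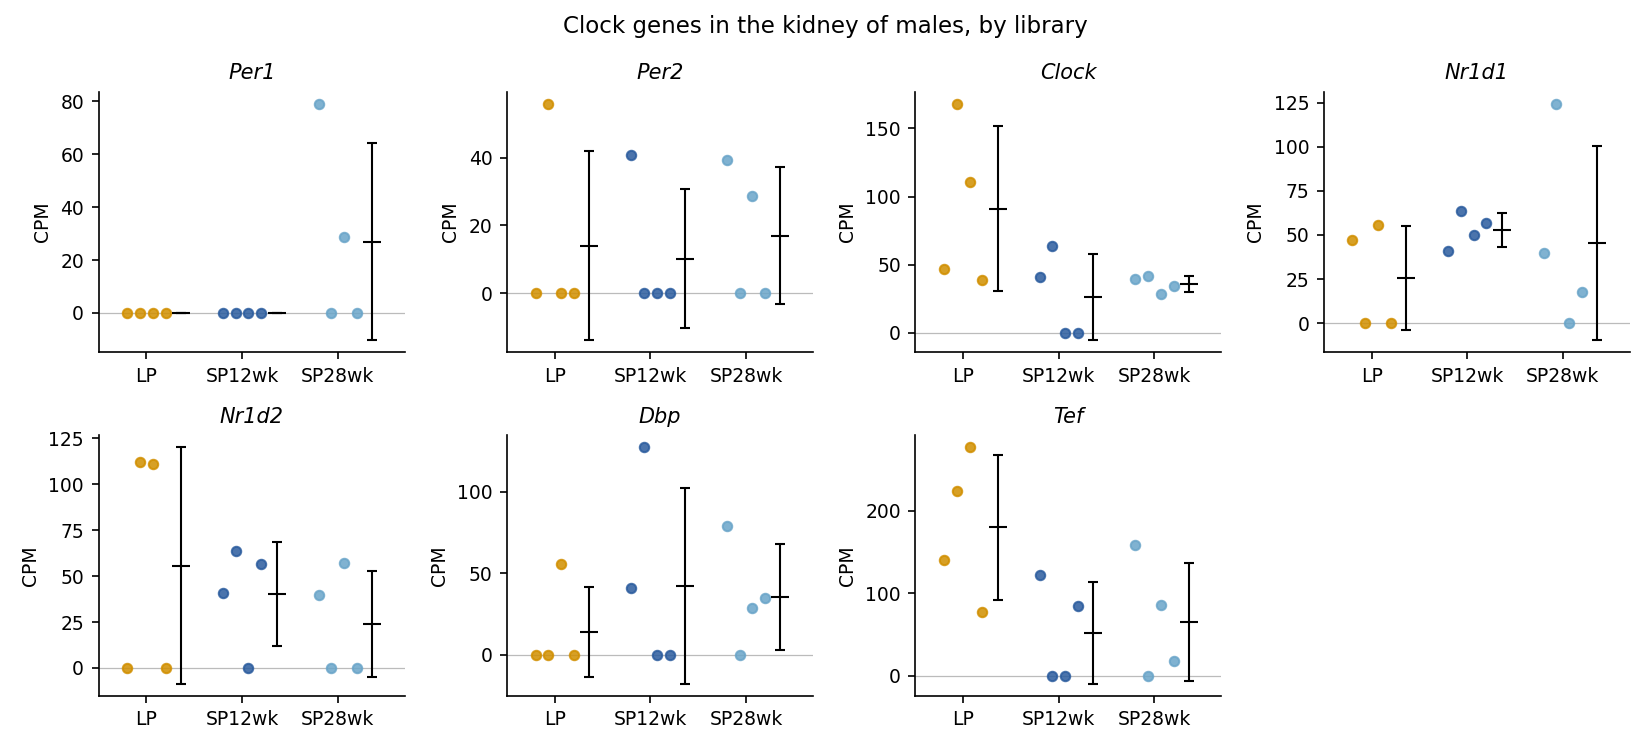
Level of the 7 clock genes listed in experiment 1, in CPM on the vertical axis, for LP, SP12wk and SP28wk. Each point is 1 library, the black bar is the mean and the whiskers are the SD (n = 4). Most points stand for 0 to 3 reads, Tef has the highest LP points, at 77.7 to 277 CPM, and the groups overlap in every panel.

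For SP12wk against LP, 0 of 6 members tested were called, against 0.0196% of the 5091 genes tested, and 0 were below an unadjusted p of 0.05, against 7.25% of all genes. For SP28wk against SP12wk the members gave 0 and 0, against 0.137% and 6.13%. For SP28wk against LP they gave 0 and 0, against 0.216% and 8.49%. With shares this low among all genes, 0 of 6 is no result about the clock genes. DESeq2 and limma-voom also called 0 members in each comparison, and limma-voom put 1, Tef in SP12wk against LP, below an unadjusted p of 0.05 (log2 fold change -1.52, adjusted p of 0.543).

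The median log2 fold change of all genes in experiment 1 depended on the scaling. It was 0.00, 0.15 and 0.18 for SP12wk against LP, SP28wk against SP12wk and SP28wk against LP with TMM scaling, and -0.17, 0.01 and -0.16 with library totals alone. The medians of the 6 members, in the same order, were -0.0016, 0.17 and -0.12 with TMM and -0.19, 0.02 and -0.44 with totals alone. With sums over transcripts they were 0.68, -0.26 and -0.25. For SP28wk against LP the median was 0.52 with no filter, where 7 members were tested, and 0.40 without SP28wk replicate 4. The direction of the medians thus turned with the processing in each comparison. In SP28wk against LP, all 11 genes called were higher with TMM, while 10 of 13 were higher with totals alone.

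**Figure D5:**
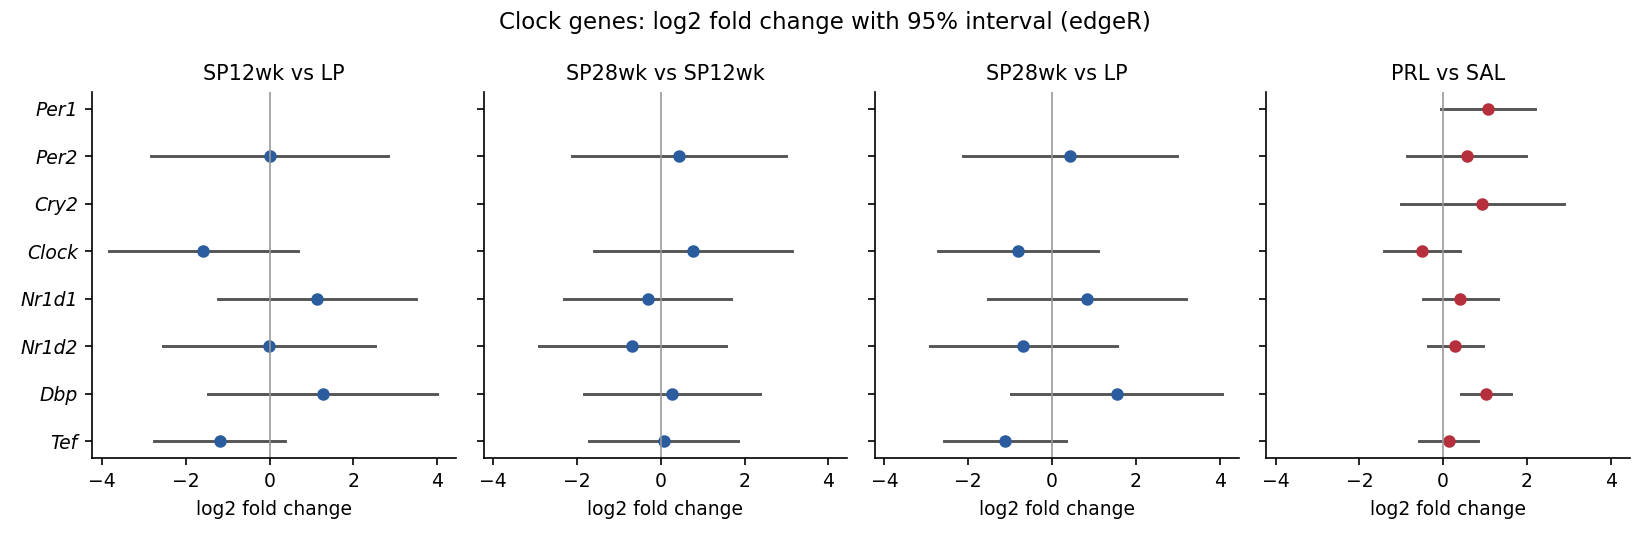
Log2 fold change of the tested clock genes (horizontal axis) in the 3 comparisons of experiment 1 and in PRL against SAL, with points for the edgeR estimate and lines for the 95% interval. The interval of Dbp in PRL against SAL, 0.42 to 1.62, is the only one that leaves out 0. Each gene tested in both experiments has wider intervals in experiment 1. Genes with under 4 reads in a group are fitted values with little behind them.

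In males, 10 of the other clock genes were tested and 0 were below an unadjusted p of 0.05 in any of the 3 comparisons. Csnk1a1 had the most reads of them, with means of 403 ± 379, 237 ± 106 and 183 ± 83.6 CPM in LP, SP12wk and SP28wk (SD, n = 4 each), followed by Nono, Bhlhe40 and Usp2. Of the clock outputs, 7 were tested and 0 were below that p. In SP12wk against LP, 2 of 7 glucocorticoid responsive genes (Mt1 and Errfi1), 1 of 6 immediate early genes (Zfp36) and 0 of 6 genes of the cold and heat response were below it, all named for their values. In SP28wk against SP12wk it was 2 of 7 (Dusp1 and Errfi1), 1 of 6 (Dusp1) and 1 of 6 (Cirbp), and in SP28wk against LP it was 0 in each of these lists. None was called by edgeR after adjustment.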

How the data were processed

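Kidney RNA of 24 hamsters was sequenced as nanopore cDNA on 1 flow cell per experiment, with 12 libraries on each. The authors used Guppy for basecalling, Porechop for adapters, Filtlong for read quality and Minimap2 for alignment, with the mouse genome as the reference. The submitters' processing notes also name Salmon, without its role. The authors deposited estimated counts per mouse transcript, not scaled to library size, of which 2868 of 439944 values in experiment 1 and 3447 of 859080 in experiment 2 were not whole. Reads of a hamster were thus matched to another species, and diverged transcripts can be missed. Each table lists only transcripts with a count. The depth per library is given in the report, and replicates of a group differed by more than counting noise.

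A read can be listed on several transcripts of a gene, so 1 row per gene was used, the one with the highest total. Rounded counts entered the quasi-likelihood test of edgeR 4.0.16 (R 4.3.3) with TMM scaling and no covariate, separately for each experiment. Benjamini-Hochberg adjustment covered the genes counted in 4 or more of 12 libraries (experiment 1, 5091 genes) or 6 or more of 12 (experiment 2, 10701 genes). The threshold was an adjusted p of 0.05. Single genes were compared by two-sided exact permutation tests of mean CPM (scipy 1.17.1), unadjusted. Correlations used 100000 permutations. The script was tested on simulated data. The labels do not name the animal behind each library, so p-values measure the spread between these samples. No label pairs the libraries by their replicate number, and the main fit took none as paired.

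Alternatives were sums over transcripts, DESeq2 1.42.0, library totals alone, limma-voom (limma 3.58.1), no filter, a stricter filter (8 of 12 and 12 of 12), only the groups compared, a replicate block and each library left out. The members and the gene lists were chosen with earlier results of these data known. The genes named were all members, the 5 most like Tef among genes with at least 48.5 reads, and up to 4 of each list with the most reads, besides those said to be named for their values and Hlf and Arntl, added for their place in the clock after the values were seen. No genome, promoter or protein sequence was used here.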

Additional observations from a re-analysis of the deposited data

Results flagged for a closer look

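In 39 groups of values of the members, 6 had a highest library that lay far from the others of its group by Dixon's test. That test is made for continuous values, so its usual rate of about 1 in 20 does not hold for counts this low. Of the 6 libraries, 5 were the only one of their group with a read, and that read was single. A group of this kind is flagged by construction. They were Per2 in LP replicate 2 (56.0 CPM) and in SP12wk replicate 1 (40.9 CPM), Dbp in LP replicate 3 (55.5 CPM), and Cry1 in SAL replicate 1 (2.70 CPM) and in PRL replicate 5 (5.75 CPM). The sixth was Nr1d2 in PRL replicate 3, at 75.1 CPM from 19 reads, with the next PRL library at 41.4 CPM.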

How the results depend on the processing

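No member was called by any of the 20 alternatives of a comparison. The log2 fold change of Dbp in PRL against SAL stayed above 0 in all of them. Its Benjamini-Hochberg adjusted p ran from 0.0958, with the replicate block, to 0.99998. The replicate block takes equal replicate numbers as paired. Deviations of same-numbered libraries had correlations of -0.10 to 0.21 in experiment 1 and -0.18 to 0.24 in experiment 2. Those of differently numbered libraries ran from -0.21 to 0.21 and from -0.24 to 0.21. No label gives a pairing, and these values could not exclude one.

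Genes called over the whole table were 1 in SP12wk against LP, and 0 with sums over transcripts, DESeq2, totals alone, limma-voom, no filter, the stricter filter, the replicate block and only the groups compared. In SP28wk against SP12wk there were 7, and 0 with sums, 2 with DESeq2, 2 with the stricter filter and 18 with only the groups compared. In SP28wk against LP there were 11, and 0 with sums, 2 with DESeq2, 30 with limma-voom and 5 with the stricter filter. In PRL against SAL there were 0, and 1 with sums, 92 with no filter, 49 with the replicate block and 1 without PRL replicates 1 and 2. With 1 library left out the counts ran from 0 to 8, 2 to 11, 9 to 55 and 0 to 43 in the same order. The cause was not tested.

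Of 31 comparisons of a single member, 8 had no more than 3 reads in each group and are left out here. Values that changed direction were not called by the adjusted test. The difference of mean CPM of Nr1d1 in SP12wk against LP passed the unadjusted exact test with sums over transcripts (60.5 CPM), that of Clock in SP28wk against LP without LP replicate 4 (-72.6 CPM), and that of Per1 in PRL against SAL was 4.80 to 7.30 CPM with 1 library left out. The log2 fold change of Nr1d2 in SP12wk against LP, -0.0065, was 0.26 with limma-voom, 0.035 with no filter and 0.21 with the replicate block, and ran from -0.41 to 0.56 with 1 library left out. In SP28wk against SP12wk, that of Dbp was -0.044 with DESeq2, and that of Tef was -0.053 with totals alone and -0.056 with the stricter filter. With 1 library left out, the log2 fold change in SP28wk against SP12wk ran from -0.24 to 1.302 for Dbp, -0.57 to 0.56 for Tef and -1.27 to 0.054 for Nr1d1, in SP28wk against LP from -0.11 to 1.27 for Nr1d1, and in PRL against SAL from -0.0039 to 0.44 for Nr1d2 and -0.15 to 0.54 for Tef. The difference of mean CPM ran from -34.0 to 3.31 for Nr1d2 in SP12wk against LP. For SP28wk against SP12wk it ran from -33.9 to 7.64 for Nr1d1, -21.0 to 22.0 for Dbp and -17.5 to 37.0 for Tef, for SP28wk against LP from -6.65 to 34.9 for Nr1d1, and in PRL against SAL from -0.157 to 17.9 for Tef.

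The r with Tef was 0.028 for Per2 with sums over transcripts, 0.031 for Clock with a pseudocount 10 times as large, and 0.080 for Clock and -0.029 for Dbp when centred on the group mean. It ran from -0.19 to 0.088 for Per2, -0.16 to 0.25 for Clock and -0.0072 to 0.33 for Nr1d1 with 1 library left out. In males, depth limits every member, since most values rest on 0 to 3 reads.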
